A study of Homo sapiens with 4 samples.

Results

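The 8 genes described here are the mitochondrially encoded cytochrome genes MT-CO1, MT-CO2, MT-CO3 and MT-CYB, the ATP synthase genes MT-ATP6 and MT-ATP8, and the ribosomal RNA genes MT-RNR1 and MT-RNR2. They were taken by symbol from 60279 human gene identifiers, and all 8 passed the filter on low counts. The libraries came from K562, an established chronic myeloid leukaemia line, kept without drug and given 1 mM 4-thiouridine for 5 min or for 15 min, with 2 libraries per label time. In this assay, transient transcriptome sequencing, RNA that took up the thiol-bearing uridine is biotinylated, captured on streptavidin and sequenced. Each sample mixed 150 µg of total RNA with 15 µg of Drosophila S2 RNA, so that fly reads give a common scale for yield per mass of RNA. No library from cells without 4-thiouridine is among the 4, so RNA held on the beads without label cannot be told apart from labelled RNA.

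As background, the human mitochondrial genome is a small circle that its own polymerase, POLRMT, copies as long precursors from both strands. The precursors are cut, mostly at the transfer RNAs that lie between the other genes, into ribosomal RNAs and messenger RNAs. MT-CO1, MT-CO2 and MT-CO3 encode the core of cytochrome c oxidase (complex IV), the enzyme that passes electrons to oxygen. MT-CYB encodes cytochrome b of complex III. MT-ATP6 and MT-ATP8 encode membrane subunits of the ATP synthase (complex V) and lie on a shared messenger RNA. MT-RNR1 and MT-RNR2 encode the RNAs of the small and the large mitochondrial ribosomal subunit.

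All 8 genes lie on the same strand of chromosome M in GENCODE 29 (hg38), as single exons, in the order MT-RNR1 (648 to 1601), MT-RNR2 (1671 to 3229), MT-CO1 (5904 to 7445), MT-CO2 (7586 to 8269), MT-ATP8 (8366 to 8572), MT-ATP6 (8527 to 9207), MT-CO3 (9207 to 9990) and MT-CYB (14747 to 15887). The end of MT-ATP8 and the start of MT-ATP6 share 46 bases, printed here because a read inside them fits both genes. In this stretch the capitals mark the start codon of MT-ATP6 and the stop codon of MT-ATP8.
chrM:8527-8572, plus strand: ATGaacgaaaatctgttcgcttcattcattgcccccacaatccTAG
The shared stretch was 22.2% of MT-ATP8 and 6.75% of MT-ATP6. How reads inside it were counted is not stated. If they were counted for both genes, the counts of this pair are not independent. If they were dropped, both counts are lowered, that of MT-ATP8 by the larger part of its length. MT-ATP6 and MT-CO3 share 1 base.

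The label enters RNA at uridines, and the first 60 bases of 4 of the genes show how dense such positions are. Capital T marks each uridine in the DNA spelling used by the annotation.
MT-CO1: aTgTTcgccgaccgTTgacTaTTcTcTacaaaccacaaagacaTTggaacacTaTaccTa
MT-CO3: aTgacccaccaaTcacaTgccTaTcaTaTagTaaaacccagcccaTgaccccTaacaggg
MT-ATP6: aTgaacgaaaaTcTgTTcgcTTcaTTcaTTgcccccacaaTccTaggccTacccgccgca
MT-RNR2: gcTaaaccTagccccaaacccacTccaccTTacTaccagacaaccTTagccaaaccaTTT
Over the whole gene, uridines made up 26.6% of MT-CO1, 26.7% of MT-CO3, 25.1% of MT-CO2, 25.2% of MT-CYB and 25.6% of MT-ATP6. They made up 21.7% of MT-ATP8, 21.5% of MT-RNR1 and 22.1% of MT-RNR2. The longest transcripts of 17095 tested genes had a median of 25.3%, and 17.4% and 33.1% at the 5th and 95th percentiles, so none of the 8 genes stood outside that range. The longest run without a uridine was 26 bases, in MT-CO1 and in MT-RNR1.

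Some of these genes have near-identical copies in the nuclear genome, where reads can be shared. A copy that is called MTATP6P1, on chromosome 1 (633696 to 634376), matched MT-ATP6 at 98.5% of 681 bases. The first 60-base window with the most differences is shown for both, with capitals at the differing positions.
MT-ATP6, chrM:8642-8701, plus strand: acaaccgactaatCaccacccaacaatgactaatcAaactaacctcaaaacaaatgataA
MTATP6P1, chr1:633811-633870, plus strand: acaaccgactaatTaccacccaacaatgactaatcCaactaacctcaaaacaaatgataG
Even in this window the pair differed at 3 positions, and 46.7% of the 50-base windows of MT-ATP6 occurred unchanged in the copy. The corresponding share of windows found in any other annotated transcript was 49.5% for MT-CO1, 30.6% for MT-CO3, 29% for MT-CO2, 14% for MT-RNR2, 8.23% for MT-ATP8, 1.19% for MT-CYB and 0% for MT-RNR1. The sources used here do not give the read length or the treatment of reads that match several places.

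The human reads summed to between 4339981 and 5051370 per library and the fly reads to between 308978 and 897018. The 8 genes held 1.21% and 1.41% of the human reads after 5 min and 3.09% and 2.59% after 15 min. They made up 58.3% and 54.6% of all chromosome M reads after 5 min, and 44.5% and 43.8% after 15 min. All 10 K562 and erythroid markers had reads (1858 to 2666 CPM in sum, where CPM is reads per 1000000 human reads), and the summed markers of T cells, B cells, monocytes, fibroblasts and epithelial cells reached at most 59.6 CPM for any type. The labels do not tie the libraries to separate cultures, so the p-values measure the spread between libraries, which may be technical. The libraries are bulk, so more mitochondria or cells contributing RNA cannot be told apart from more RNA in each.

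Levels were first compared between the genes as reads per kilobase of gene per 1000 fly reads, a unit used for every level below unless CPM is named. The length was that of the whole gene, with no allowance for stretches shared with other transcripts. After 5 min the highest level was that of MT-CO3, at 19.3 and 26.9 in the 2 libraries. MT-CO1 followed with 11.9 and 16.1. MT-CYB had 10.2 and 15.3, and MT-CO2 had 10.3 and 14.8. The last 2 changed places between the libraries. Both lay below MT-CO1 inside each library, though their values overlapped with those of MT-CO1 across libraries. MT-CO3 lay above all other genes in every 5 min value.

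The ATP synthase pair stood lower at 5 min, although it is read from the same strand. MT-ATP6 had 6.40 and 9.86, and MT-ATP8 had 2.31 and 3.28. Among these 6 mRNAs the highest level was 8.39 and 8.18 times the lowest in the 2 libraries of 5 min. Leaving out MT-ATP8, the shortest of the genes at 207 bases, the ratio was 3.02 and 2.72. MT-ATP8 lies on the same messenger RNA as MT-ATP6, so its lower level need not mean less of a messenger RNA. The part of its short length and of the 46 shared bases was not tested.

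After 15 min the order was different and was the same in both libraries. MT-CYB led with 116 and 95.9, followed by MT-CO3 with 109 and 90.1, MT-CO2 with 107 and 87.4, and MT-ATP6 with 98.8 and 74.5. Neighbours among these 4 overlapped when values were compared across the libraries, although their order held inside each library. MT-CO1 had moved from place 2 to place 5, with 73.7 and 62.0, below every value of the 4, and MT-ATP8 stood at place 6, with 33.5 and 28.5. The mRNAs had also come closer together. The highest was 3.45 and 3.36 times the lowest, and 1.57 and 1.55 times without MT-ATP8. The shares of windows also found in other annotated transcripts were 1.19% for MT-CYB, 30.6% for MT-CO3 and 29% for MT-CO2. They were 46.7% for MT-ATP6, 49.5% for MT-CO1 and 8.23% for MT-ATP8, the lowest of the mRNAs. If reads that match several places were dropped, these levels would be lowered unequally. The part of such reads in the order at either label time was not tested.

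The ribosomal RNAs were the lowest of the 8 genes in every library. MT-RNR2 stood at 0.791 and 0.937 after 5 min and at 5.63 and 2.76 after 15 min. MT-RNR1 stood at 0.183 and 0.275 after 5 min and at 2.14 and 0.526 after 15 min. Removal of ribosomal RNA before sequencing is not stated in the labels, and its part in the low rRNA levels was not tested. Nuclear genes annotated as rRNA or rRNA pseudogenes held 0.0116% to 0.0172% of the human reads.

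**Figure D1:**
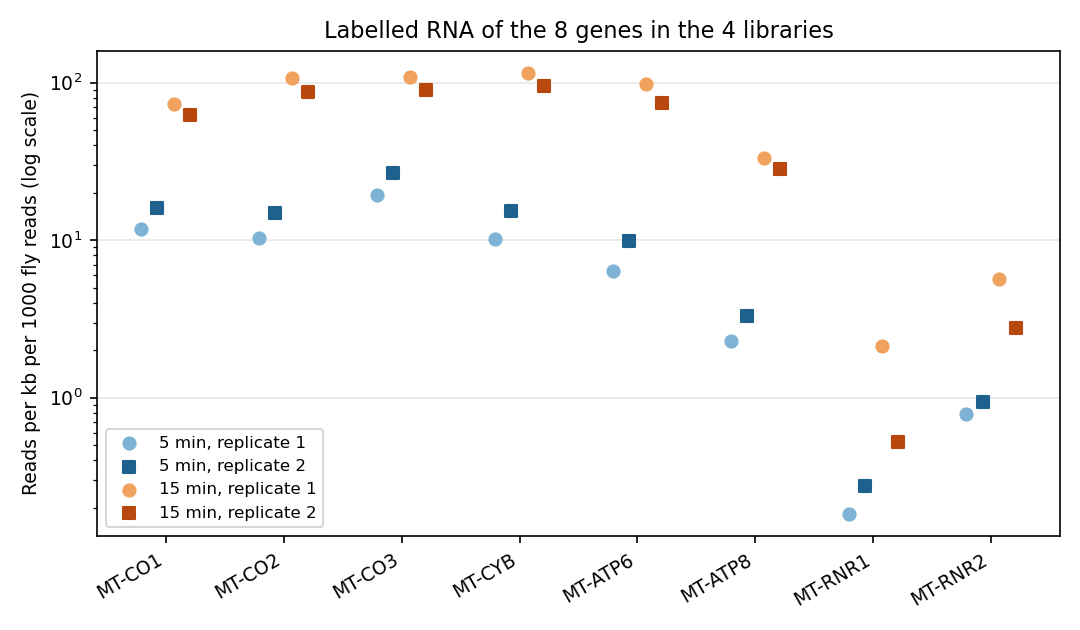
Level of each gene in the 4 libraries, as reads per kilobase per 1000 fly reads on a log axis; each point is 1 library. The 15 min points lie above the 5 min points for every gene, MT-CO3 leads at 5 min and MT-CYB at 15 min, and the MT-RNR1 libraries of 15 min lie far apart (2.14 and 0.526).

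Libraries of the same label time differed in these RNAs. After 5 min the level in replicate 1 was 0.649 to 0.844 times that in replicate 2 for all 8 genes. After 15 min it was 1.17 to 1.33 times as high for the mRNAs, 2.04 times for MT-RNR2 and 4.08 times for MT-RNR1. The median tested gene was 1.03 times as high in replicate 1 as in replicate 2 after 15 min, and 0.842 times after 5 min. In CPM the spread of MT-RNR1 between the 15 min libraries exceeded that of 99.9% of tested genes, and that of MT-RNR2 exceeded 98.0%. The spread of the mRNAs between those libraries lay between the 58.4 and 80.6 percentiles.

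Between 5 and 15 min, labelled RNA of 7 of the 8 genes rose on the fly scale, and none fell. The rises ran from 4.30-fold (MT-CO3) to 11.1-fold (MT-ATP8). Of all 17322 tested genes 98.4% were called higher and 0.0115% lower on this scale, so the share of the 8 genes that was called lay near the background. The sizes of all 8 folds lay above the median. The median fold of all tested genes was 3.20, with quartiles of 2.57 and 4.01 and a 95th percentile of 5.72. Each test was edgeR's quasi-likelihood F test on fly totals, adjusted by Benjamini-Hochberg over all tested genes, and its SE draws partly on the spread of all genes, so it can be smaller than the libraries of 1 gene would give.

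Among the complex IV genes, MT-CO3 went from 15.2 and 21.1 to 85.3 and 70.6 reads per 1000 fly reads, without the division by length. That was a 4.30-fold rise (log2 fold change 2.11 ± 0.211 SE, edgeR adjusted p = 1.4e-22). MT-CO1 went from 18.3 and 24.8 to 114 and 95.5, a 4.85-fold rise (2.28 ± 0.218, edgeR adjusted p = 1.36e-24). These were the smallest folds among the 6 mRNAs, and both exceeded the ratio of 3 between the label times, as did 58.1% of tested genes. MT-CO2 went from 7.06 and 10.1 to 73.3 and 59.8, a 7.75-fold rise (2.95 ± 0.214, edgeR adjusted p = 9.5e-41). The genes of 1 enzyme complex thus had unequal folds. For each of them, as for the other 5 genes, both 15 min libraries lay above both 5 min libraries, which held for 99% of tested genes.

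The complex III gene MT-CYB went from 11.6 and 17.4 to 132 and 109 reads per 1000 fly reads, an 8.31-fold rise (log2 fold change 3.05 ± 0.226 SE, edgeR adjusted p = 5.46e-39). The ATP synthase genes had the largest folds of the 8. MT-ATP6 went from 4.36 and 6.71 to 67.3 and 50.8, a 10.7-fold rise (3.41 ± 0.215, edgeR adjusted p = 4.64e-53). MT-ATP8 went from 0.477 and 0.679 to 6.93 and 5.91, an 11.1-fold rise (3.48 ± 0.185, edgeR adjusted p = 3.24e-74). In the order of all tested genes by fold, MT-ATP8 stood at 35, MT-ATP6 at 44, MT-CYB at 125, MT-CO2 at 181, MT-CO1 at 1994 and MT-CO3 at 3337.

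The rRNAs rested on fewer reads. MT-RNR2 had 1106 and 1174 reads after 5 min and 2799 and 1328 after 15 min, and rose 4.86-fold on the fly scale (log2 fold change 2.28 ± 0.176 SE, edgeR adjusted p = 6.82e-36). The pairings of its libraries gave folds of 2.94 to 7.12. The call did not hold when the first 5 min library was left out (adjusted p = 0.274) or the second (adjusted p = 0.25). MT-RNR1 had 157 and 211 reads after 5 min and 652 and 155 after 15 min. Its 5.85-fold difference did not pass (log2 fold change 2.55 ± 1.06 SE, edgeR adjusted p = 0.14), although its fly-scaled libraries did not overlap by label time. With DESeq2 its adjusted p was 0.00894, and with a non-robust fit 1.29e-40, and it also passed without the first 15 min library (2.30-fold, adjusted p = 0.000272) and without the second (9.37-fold, adjusted p = 2.78e-21). The size for MT-RNR1 on this scale thus depended on which 15 min library was used.

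**Figure D2:**
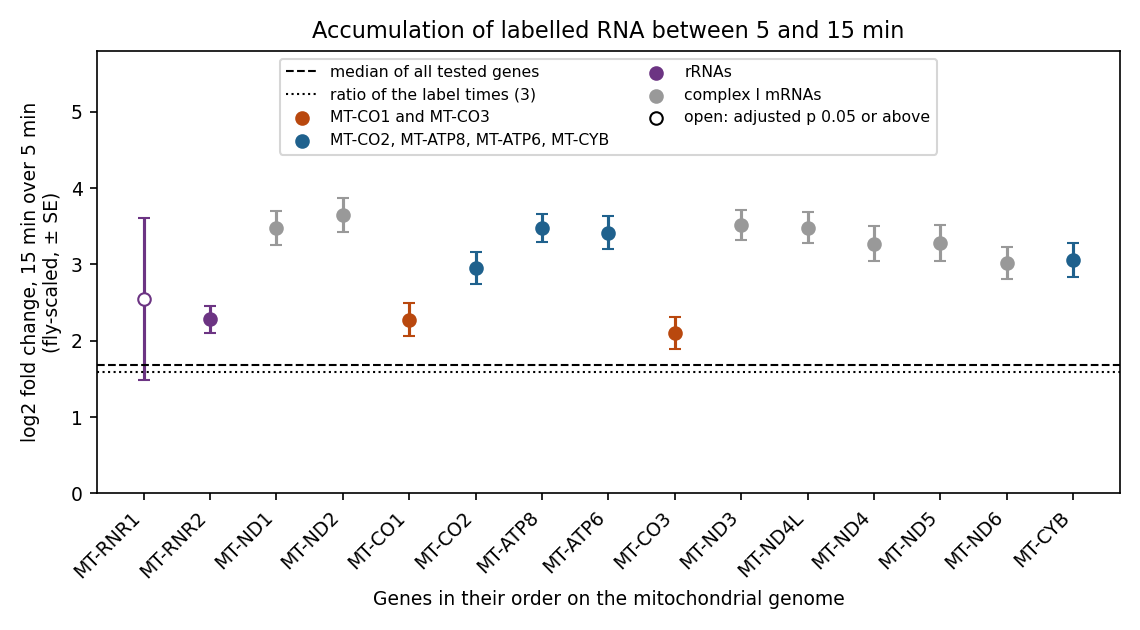
Log2 fold change from 5 to 15 min on the fly scale for the 15 mRNA and rRNA genes of the mitochondrial genome in genome order, with the SE of the edgeR fit; the open point did not pass. MT-CO1 (2.28) and MT-CO3 (2.11) lie below their neighbours on either side, and the dashed and dotted lines mark the median of all tested genes and the ratio of the label times.

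Position along the genome did not order the folds. MT-CO1 and MT-CO3 lie on either side of MT-CO2, MT-ATP8 and MT-ATP6, whose folds were 7.75 to 11.1. The 7 mitochondrially encoded complex I mRNAs, all of which rose, had a median fold of 11.1 and a range of 8.10 to 12.5. The lowest was MT-ND6, the only one of them on the opposite strand, and the next was MT-ND4 at 9.66. MT-CO1 and MT-CO3 lay below all of them. MT-CO2 lay below MT-ND6 by less than its SE (log2 fold changes of 2.95 ± 0.214 and 3.02 ± 0.207). MT-CYB lay between MT-ND6 and MT-ND4, and MT-ATP6 and MT-ATP8 lay above MT-ND4 within the range. Per minute, the mean level of MT-CO3 grew by 4.62 over the first 5 min and by 7.63 over the next 10 min, a ratio of 1.65. The same ratio was 1.92 for MT-CO1, 3.38 for MT-CO2, 3.65 for MT-CYB, 4.83 for MT-ATP6 and 5.05 for MT-ATP8. The value for the first 5 min assumes no signal at the start of labelling and label entering RNA at once. The ratio is plain arithmetic on group means, with no allowance for decay, delay or RNA held without label. It was not computed for all tested genes, whose median fold was 3.20.

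To compare MT-CO1 and MT-CO3 with the other mRNAs without the fly scale, reads, not divided by length, were set against each other inside each library. MT-CO1 and MT-CO3 together had 1.42 and 1.31 times as many reads as MT-CO2, MT-CYB, MT-ATP6 and MT-ATP8 together after 5 min. After 15 min they had 0.712 and 0.736 times as many. The means fell from 1.37 ± 0.0767 to 0.724 ± 0.0170 (SD, n = 2 each, with no overlap), and dividing each later library by each earlier one gave 0.50 to 0.56. The two-sided exact permutation test gave p = 0.33, its smallest possible value with 6 arrangements, so it could not pass.

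A model across all genes tested the same difference gene by gene, with the library size set to the reads of those 4 mRNAs. Relative to them MT-CO3 fell by 1.01 on the log2 scale (SE 0.26, edgeR adjusted p = 0.00016) and MT-CO1 fell by 0.84 (SE 0.26, edgeR adjusted p = 0.0016). On this scale 89.2% of all tested genes were called lower and 0.0115% higher. The genes were chosen with earlier results of these data known, which the adjusted p-values do not allow for. Leaving out any 1 library gave log2 fold changes of -0.91 to -0.78 for MT-CO1 and -1.06 to -0.96 for MT-CO3. With a replicate block MT-CO3 still passed (edgeR adjusted p = 0.035) and MT-CO1 did not (edgeR adjusted p = 0.0757). The SE includes the library differences of all tested genes. The pairings put MT-CO3 alone between 0.473 and 0.519 and MT-CO1 alone between 0.522 and 0.595. Measured against each other, MT-CO1 had 1.21 and 1.18 times the reads of MT-CO3 after 5 min and 1.33 and 1.35 times after 15 min. The contrast with MT-ATP6 was wider, with 3.48 and 3.14 MT-CO3 reads per MT-ATP6 read after 5 min and 1.27 and 1.39 after 15 min.

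The ratios of MT-ATP8 to MT-ATP6 and of MT-CYB to MT-CO2 changed less. MT-ATP8 had 0.109 and 0.101 reads per MT-ATP6 read after 5 min and 0.103 and 0.116 after 15 min, which overlapped. This pair lies on a shared messenger RNA and shares part of its sequence. MT-CYB had 1.65 and 1.72 reads per MT-CO2 read after 5 min and 1.80 and 1.83 after 15 min, without overlap. Between these pairs the folds on the fly scale differed more. MT-CO2 and MT-CYB rose 7.75-fold and 8.31-fold, and MT-ATP6 and MT-ATP8 rose 10.7-fold and 11.1-fold. Among the reads of all 8 genes, MT-CO3 went from 26.0% and 25.5% to 17.4% and 17.8%, and MT-CO1 from 31.3% and 30.1% to 23.2% and 24.1%. MT-CYB went from 19.9% and 21.1% to 27.0% and 27.6%, and MT-ATP6 from 7.47% and 8.13% to 13.8% and 12.8%.

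In summed reads, the rRNA to mRNA comparison did not separate the label times. The 2 rRNAs together had 0.0247 and 0.0213 reads per read of the 6 mRNAs after 5 min, and 0.0226 and 0.0122 after 15 min. The label times overlapped, and the two-sided exact permutation test gave p = 0.667. The outcome depended on the measure. With the mean of the genes' log2 reads in place of sums the log2 change was -0.68, against -0.46 for sums, and with complex I mRNAs as the denominator it was -1.21. In both of these alternatives the label times did not overlap, with the smallest possible exact p of 0.33. The gene-by-gene model called both lower relative to the 4 mRNAs, MT-RNR2 with a log2 fold change of -0.90 ± 0.259 (SE, edgeR adjusted p = 0.000764) and MT-RNR1 with -0.64 ± 0.271 (edgeR adjusted p = 0.0216). Without replicate 2 of the 15 min group these were -0.58 (adjusted p = 0.156) and -0.031 (adjusted p = 0.94), so neither held without that library. Leaving out the first 5 min library also ended both calls (adjusted p = 0.0534 and 0.0893), and leaving out the second ended that of MT-RNR1 (adjusted p = 0.0913). Between themselves, MT-RNR1 had 0.142 and 0.180 reads per MT-RNR2 read after 5 min and 0.233 and 0.117 after 15 min.

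**Figure D3:**
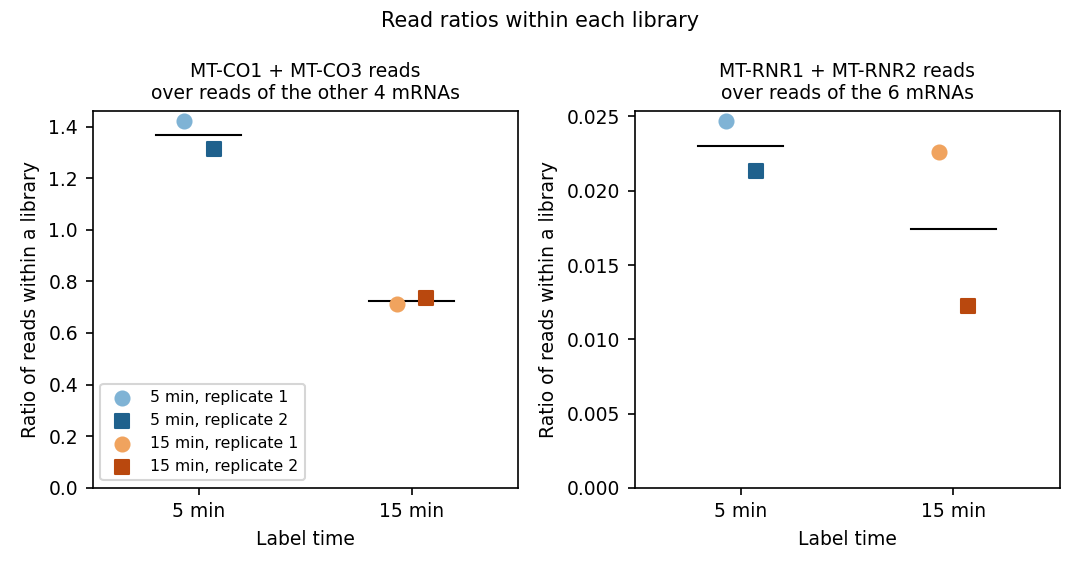
Read ratios within each library at both label times, with lines at the group means; the left panel sets MT-CO1 plus MT-CO3 against the other 4 mRNAs, the right panel both rRNAs against the 6 mRNAs. The left ratio falls from a mean of 1.37 to 0.724 with no overlap, while in the right panel the 15 min points (0.0226 and 0.0122) lie on either side of the 5 min replicate at 0.0213.

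As a share of all labelled human RNA, scaled with TMM factors (a trimmed mean that takes out the rise common to most genes), all 6 mRNAs rose and neither rRNA passed. In this comparison 16.8% of tested genes were called higher and 21.3% lower, or 24.4% and 16.2% with total counts in place of TMM. The median log2 fold change over tested genes was 0.03 with TMM and 0.13 with total counts. MT-ATP8 went from 98.6 and 116 to 438 and 386 CPM (log2 fold change 1.83 ± 0.0679 SE, edgeR adjusted p = 4.34e-154). MT-CO3 went from 3133 and 3605 to 5379 and 4615 CPM, and had the smallest rise (0.47 ± 0.0669, edgeR adjusted p = 5.97e-11). For all 6 mRNAs and MT-RNR2 both 15 min CPM values lay above both 5 min values, as they did for 43.1% of tested genes.

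Between these ends, MT-CO1 rose by 0.64 on the log2 scale, from 3782 and 4254 to 7169 and 6246 CPM, and MT-CO2 by 1.32, from 1458 and 1732 to 4625 and 3908 CPM. MT-CYB rose by 1.42, from 2403 and 2983 to 8325 and 7153 CPM. MT-ATP6 rose by 1.78, from 901 and 1149 to 4247 and 3319 CPM (edgeR adjusted p = 3.46e-06), a call lost only with no filter on low counts among the 12 alternatives (adjusted p = 0.101). The rRNAs were spread too widely to call. MT-RNR1 had 36.2 and 44.9 CPM after 5 min and 129 and 32.8 after 15 min (log2 fold change 0.91 ± 1.04 SE, edgeR adjusted p = 0.612). MT-RNR2 had 255 and 250.0 CPM after 5 min and 554 and 281 after 15 min (0.63 ± 0.507, edgeR adjusted p = 0.48).

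The result for MT-RNR1 turned with 1 library. Without replicate 1 of the 15 min group its share was lower after 15 min (log2 fold change -0.43, adjusted p = 0.0317), and without replicate 2 it was higher (1.54, adjusted p = 6.71e-43). Under the same omissions MT-RNR2 had log2 fold changes of 0.04 (adjusted p = 0.768) and 1.01 (adjusted p = 1.02e-39). With a non-robust fit both rRNAs passed as higher (adjusted p = 8.74e-06 for MT-RNR1 and 2.07e-08 for MT-RNR2).

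The nuclear copies took a small part of the counts except for MT-ATP6. MTATP6P1 had 609 and 757 reads after 5 min and 3288 and 2574 after 15 min, which is 14% to 16.4% of the reads of MT-ATP6. It rose 11.5-fold on the fly scale, close to MT-ATP6 itself, and its reads cannot be told apart from reads of the mitochondrial gene over the shared windows. For MT-CO1 45 copies by symbol together had 0.483% to 0.628% of the reads of the gene, for MT-CO3 36 copies had 0.372% to 0.555%, and for MT-RNR2 13 copies had 4.43% to 9.19%. The chromosome 1 copy with the most shared windows, MTCO1P12, had 105 reads over all 4 libraries although it matched MT-CO1 at 98.7% of aligned bases. Adding the reads of the copies to each gene left 7 of 8 genes called on the fly scale and 6 of 8 in share.

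The authors deposited a production rate for untreated cells, with 1 value per gene and no stated scale, and 5 of the 8 genes have a rate analysed here. In the authors' deposited table MT-CO1 had a rate of 7.36, MT-CYB 6.70, MT-CO2 6.61, MT-ATP6 4.28 and MT-ATP8 1.47. These were places 2, 3, 4, 10 and 20 among 11777 genes, whose median rate was 0.0114. High rates were shared by the 7 mitochondrially encoded complex I mRNAs, which lay from place 5 (MT-ND6) to place 14 (MT-ND3). Dividing each rate by the mean 5 min level gave 0.526 for MT-CO1, MT-CO2 and MT-ATP8 and 0.527 for MT-CYB and MT-ATP6. The same quotient with the 15 min level ranged from 0.0474 for MT-ATP8 to 0.109 for MT-CO1.

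For these genes the deposited rate was therefore the 5 min level on another scale, within 1.00034 times between the highest and the lowest quotient. It is not a measurement independent of the 5 min libraries. The quotient stayed between 0.526 and 0.527 over all 12 mitochondrial mRNAs with a rate. Among 418 single-exon genes, for which the gene length is unambiguous, 81.1% had a quotient within 1% of their median of 0.526, against 1.67% for the 15 min level. Over 10370 genes with any number of exons, taken per kilobase of exonic length, the median quotient was 0.303. Of these, 8.75% lay within 5% of it for the 5 min level and 10.6% for the 15 min level. The quotient depends on the length taken for a gene. Its spread therefore cannot show whether the relation holds for genes with several exons. The order of the rates is thus that of the 5 min libraries, in which MT-CO1 stood above MT-CYB, MT-CO2 and MT-ATP6. After 15 min MT-CO1 stood below these 3 genes.

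**Figure D4:**
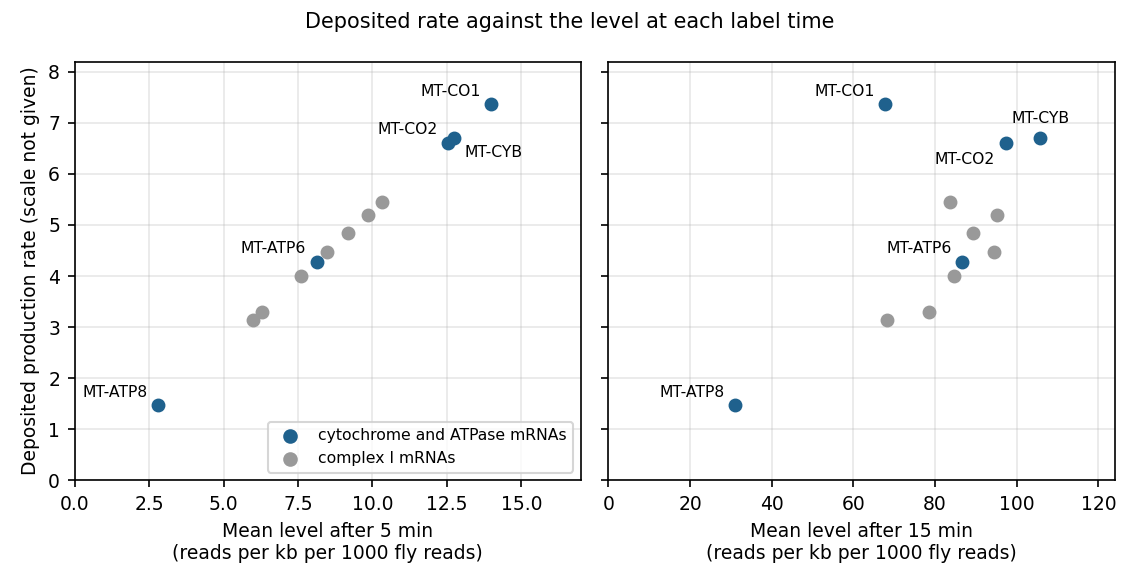
Deposited rate of the 12 mitochondrial mRNAs that have a rate against the mean level after 5 min (left) and after 15 min (right), as reads per kilobase per 1000 fly reads; each point is 1 gene. On the left the points lie on a straight line through 0, and on the right MT-CO1, with a rate of 7.36, has a lower level than MT-CO2, MT-CYB and MT-ATP6.

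The nuclear genes for the same enzyme complexes were measured in the same libraries. On the fly scale 9 of 9 complex III genes, 11 of 11 complex IV genes and 16 of 16 complex V genes rose, with median folds of 2.13, 2.01 and 2.24, all below the 3.20 of all tested genes. Since 98.4% of all tested genes were called higher on this scale, these counts match the background. In share 7 of 9, 10 of 11 and 12 of 16 fell, and 0, 0 and 1 rose, beside 21.3% lower and 16.8% higher among all tested genes. COX4I1, a nuclear subunit of the enzyme that holds MT-CO1, rose 2.76-fold on the fly scale and fell by 0.18 in log2 share (edgeR adjusted p = 0.0166). UQCRH, a partner of MT-CYB in complex III, rose 2.13-fold and fell by 0.56 in log2 share (edgeR adjusted p = 5.13e-17). ATP5F1B, the catalytic beta subunit of the ATP synthase, rose 1.51-fold and fell by 1.05 in log2 share (edgeR adjusted p = 4.25e-63). No fold in these 3 lists reached the 4.30 of MT-CO3, and the highest was 3.64.

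In the share comparison, genes that act on mitochondrial RNA were called at rates closer to those of all tested genes (16.8% higher and 21.3% lower). This difference from the complex III, IV and V lists was not tested. On the fly scale 98.4% of all tested genes were called higher. Of 10 genes for mitochondrial transcription 9 rose on the fly scale (median 3.16-fold), and in share 2 rose and 3 fell. The polymerase gene POLRMT rose 1.91-fold and fell by 0.72 in log2 share (edgeR adjusted p = 3.98e-11), and TFAM, the DNA-packaging transcription factor, rose 2.18-fold and fell by 0.52 (edgeR adjusted p = 8.57e-14). TFB2M, the other of the 3 most abundant genes of that list, rose 2.74-fold, and its log2 share change of -0.20 did not pass (edgeR adjusted p = 0.0638). Of 19 tested genes for RNA processing and decay all 19 rose on the fly scale (median 2.98-fold), and in share 6 rose and 6 fell. LRPPRC, whose protein stabilises mitochondrial mRNAs, rose 2.04-fold and fell by 0.62 in log2 share (edgeR adjusted p = 6.75e-23). The other 2 most abundant genes of this list rose in log2 share, PTCD3 by 0.20 (edgeR adjusted p = 0.00495) and TBRG4 by 0.24 (edgeR adjusted p = 0.000413). Of 16 complex IV assembly and copper genes all 16 rose on the fly scale (median 2.90-fold), and in share 1 rose and 4 fell.

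Outside the mitochondrial genome, the genes with the most similar pattern were sought by the distance between centred log2 fly-scaled values over the 4 libraries. The search covered 6954 genes whose average log2 CPM reached 5. The nearest to MT-CO1 were OR51I2, ZNF792 and CCDC142, at distances of 0.0739 to 0.0757, with folds of 4.87, 4.84 and 4.82. The nearest to MT-CO3 were GMPR2, TSPYL6 and ZNF552, at 0.0565 to 0.0819. MT-CYB had as its nearest gene MTND2P28, a nuclear copy of a mitochondrial gene, at 0.135. Reads counted for MTND2P28 may have come from the mitochondrial genome, which was not tested. The next, FLJ13224 and SOCS3, lay at 0.358 and 0.457. MT-RNR2 had no near neighbour, with CCDC97, AC092139.3 and NDUFA11 at 0.456 to 0.482. A pattern over 4 libraries has few degrees of freedom, and these distances are a description.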

How the data were processed

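Labelled RNA was sequenced from 4 K562 libraries, 2 after 5 min and 2 after 15 min. The files deposited hold whole-number counts for human and for fly genes, and 1 production rate for each gene, treated as a score, since per the file headers it has no scale. STAR 2.7, featureCounts, Subread 2.0.1, bcl2fastq 2.17.1.14 and edgeR are named, per the submitters' processing notes, with builds hg38 and dm6. The sources used here do not state the strand setting or the feature counted. Light-strand RNA complementary to these genes would be counted with them if strand was ignored.

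Symbols, positions and lengths came from GENCODE 29, which held 56590 of 60279 human identifiers. The count tests used edgeR 4.0.16 (R 4.3.3, filterByExpr with a minimum count of 10, robust quasi-likelihood fit, label time as the only term) on all 17322 genes that passed, with 3 scalings: fly totals, TMM, and the reads of 4 mitochondrial mRNAs. Adjusted p-values are Benjamini-Hochberg over all tested genes at 0.05, and SE is the log2 fold change over the root of the F statistic. Exact permutation tests used SciPy 1.17.1. Tested on simulated data, the fly-scaled test over 17322 genes recovered 78% of 2-fold and 95% of 4-fold changes. Recovery at the variation between libraries fitted to these data on the fly scale (9.77%) was not tested. Nor was recovery with most genes rising together. Alternatives were other scalings, DESeq2 1.42.0, no filter, a non-robust fit, a replicate block, adding nuclear copies and leaving out each library. The genes and lists were chosen with earlier results of these data known. Named were all 8 genes, nuclear list members among the 3 of highest mean CPM, the most read or most similar nuclear copies, and the 3 nearest patterns for 4 of the genes; MTCO1P12 was named after its values were seen.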

Additional observations from a re-analysis of the deposited data

How the results depend on the processing

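On the fly scale 7 of 8 genes were higher, and 6 to 8 over all alternatives; in share 6 were higher, 5 with no filter, 6 to 8 over the rest, and 0 lower, or 0 to 1 lower when 1 library was left out. Relative to the 4 mRNAs 4 genes were lower, 2 with the replicate block and 2 to 4 when 1 library was left out. With the replicate block the relative log2 fold change was -0.84 for MT-CO1 (adjusted p = 0.0757), -0.88 for MT-RNR1 (adjusted p = 0.0757), -1.01 for MT-CO3 (adjusted p = 0.035) and -0.94 for MT-RNR2 (adjusted p = 0.0497). Same-numbered libraries correlated by 0.0487 in their deviations. With 2 libraries per label time this cannot show whether same-numbered libraries were prepared together, which the labels do not state. In share the block raised the count from 6 to 8, as both rRNAs passed (0.83, edgeR adjusted p = 8.74e-17 for MT-RNR1, and 0.57, edgeR adjusted p = 6.88e-25 for MT-RNR2). Leaving out 1 library, where the lone library of a group is assumed to vary like the others, gave -0.91 to -0.78 for MT-CO1, -1.06 to -0.96 for MT-CO3, -1.75 to -0.031 for MT-RNR1 and -1.31 to -0.58 for MT-RNR2. In share, MT-RNR1 ranged from -0.43 to 1.54 and reversed to -0.43 without replicate 1 of the 15 min group. The log2 change of the read ratio of MT-CO1 plus MT-CO3 to the other mRNAs was -0.92, and -1.04 with means of log2 reads and -1.21 against complex I mRNAs. For the rRNAs it was -0.46 with overlapping label times, -0.68 with means of log2 reads and -1.21 against complex I mRNAs, both without overlap. The cause of the differences between libraries was not tested. With 2 libraries per label time no exact test could pass, and an error in the fly totals would move all fly-scaled values together, though not the read ratios within a library.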
